A study of Mus musculus with 23 samples.

Results

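The genes examined here encode proteins that store, release and take up calcium in the sarcoplasmic reticulum of heart muscle cells, together with the exchanger that moves calcium out across the cell membrane. The 10 genes were Atp2a2, Pln, Sln, Ryr2, Fkbp1b, Fkbp1a, Casq2, Casq1, Hrc and Slc8a1. They were selected by gene symbol from the array annotation and make up 10 of the 21892 named genes on the array. Earlier results of these data were known when they were chosen, so the set is not independent support. All 10 were measured on every array, by 16 probes in all, and probes of the same gene were averaged. Slc8a1 and Fkbp1a had 3 probes each, Atp2a2 and Fkbp1b had 2 each and the remaining 6 genes had 1 each.

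Ventricle RNA from 23 male mice was hybridised, 1 mouse per array, against a common reference pool (RNA from spleen, kidney, heart, brain and liver). MR-Cardio mice are transgenic and overexpress the mineralocorticoid receptor, the nuclear receptor for aldosterone, in cardiomyocytes. The groups were MR-Cardio mice given aldosterone (MR-Cardio-Aldo, n = 6), untreated MR-Cardio mice (MR-Cardio, n = 7), non-transgenic mice given aldosterone (Ctrl-Aldo, n = 5) and untreated non-transgenic mice (Ctrl, n = 5). The labels give a duration of 7 days for all mice. The labels used here name neither the promoter of the transgene, nor the number of founder lines, nor a vehicle for the untreated mice, nor the age of the animals. Each value below is a log2 ratio of heart over reference pool, so 1 unit is a doubling. Such ratios compare groups within a gene and do not rank the genes by abundance. In whole ventricle, fewer cells of a type and less RNA per cell cannot be told apart.

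In each heartbeat calcium leaves the sarcoplasmic reticulum through the ryanodine receptor, triggers contraction, and is pumped back by the calcium ATPase SERCA2. Phospholamban and sarcolipin are small membrane proteins that inhibit the pump, and FKBP12 and FKBP12.6 bind the ryanodine receptor. Inside the store calcium is held by calsequestrin and by the histidine-rich calcium-binding protein. The sodium-calcium exchanger removes the calcium that entered from outside.

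Promoter sequences, from 250 bases before the transcription start to 50 after it, were found for 8 of the 10 genes in RefSeq (mouse assembly GRCm38.p6). The entries for Sln and Atp2a2 are missing. Those of Pln, Fkbp1b and Slc8a1 are shown because these genes differed between genotypes with and without aldosterone in the main fit of the results that follow. Each is printed 5′ to 3′ on the strand of its gene, and capitals mark matches, on either strand, to TGTTCT (a half-site of the element bound by mineralocorticoid and glucocorticoid receptors), to TATAAA or to AGATAA (a site of GATA factors).
Pln, chr10:53337436-53337735, plus strand: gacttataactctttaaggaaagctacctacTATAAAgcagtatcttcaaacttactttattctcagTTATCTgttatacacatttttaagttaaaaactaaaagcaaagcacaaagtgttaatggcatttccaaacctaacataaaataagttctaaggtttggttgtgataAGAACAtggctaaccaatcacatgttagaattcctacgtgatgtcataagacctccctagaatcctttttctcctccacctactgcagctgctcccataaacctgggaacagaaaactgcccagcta
Fkbp1b, chr12:4841524-4841823, minus strand: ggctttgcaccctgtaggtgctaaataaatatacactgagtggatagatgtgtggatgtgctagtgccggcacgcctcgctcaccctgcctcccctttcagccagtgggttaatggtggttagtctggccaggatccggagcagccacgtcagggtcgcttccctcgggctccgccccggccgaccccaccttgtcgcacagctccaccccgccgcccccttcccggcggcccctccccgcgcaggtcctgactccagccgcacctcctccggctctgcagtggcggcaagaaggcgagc
Slc8a1, chr17:81738338-81738637, minus strand: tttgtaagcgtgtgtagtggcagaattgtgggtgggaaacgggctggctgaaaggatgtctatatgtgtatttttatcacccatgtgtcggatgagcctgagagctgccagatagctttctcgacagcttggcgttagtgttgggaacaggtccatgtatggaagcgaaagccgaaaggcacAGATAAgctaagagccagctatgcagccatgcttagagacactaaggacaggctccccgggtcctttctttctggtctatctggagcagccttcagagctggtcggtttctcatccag

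Pln was the only one of the 8 with a TGTTCT match, as AGAACA beginning at position -77 from the start, and 19.0% of the 32851 RefSeq promoters of this length hold one. Its TATAAA match began at -219 (13.6% of promoters hold one) and its AGATAA match, as TTATCT, at -183 (11.2%). Slc8a1 held an AGATAA match at -68. The complete receptor element, an inverted repeat of this half-site with a spacer of 3 bases, was in none of the 8 and in 3 of all promoters. The E-box CANNTG, held by 72.3% of promoters, was in 7 of the 8, with Fkbp1b the exception. M-CAT (CATTCC, 14.7% of promoters), the SRF CArG box (1.63%) and the MEF2 site (0.557%) were in none of the 8. The Fkbp1b promoter therefore had no match to any motif searched, and its GC content was 65.7%, against 36.0% for Pln, 50.7% for Slc8a1 and a median of 52.7% over all promoters. These are matches of letters only, and binding was not measured.

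The transgene was visible in the receptor gene Nr3c2, which was higher by 3.75 ± 0.35 (SE) in MR-Cardio-Aldo than in Ctrl-Aldo hearts and by 2.78 ± 0.34 in MR-Cardio than in Ctrl hearts. The ventricular light chain gene Myl2 had group means of 3.38 to 3.58, and the atrial light chain gene Myl7 had group means of -5.78 to -4.74. Myl2 stood above the reference pool and Myl7 far below it in every group. Other atrial markers were divided. Group means of Myl4, Nr2f1, Stard10 and Dkk3 lay below the pool throughout. Those of Tbx5 (1.81 to 2.16), Kcnj3 (0.85 to 1.74) and Bmp10 (0.12 to 1.03) lay above it, and those of Nppa on both sides. The presence of atrial tissue was not tested. The slope of 10 spike-in control probes, a measure of how wide the ratios of an array are, was 1.003 to 1.029 on MR-Cardio-Aldo and 1.008 to 1.028 on MR-Cardio arrays, against 0.964 to 0.982 on Ctrl-Aldo and 0.972 to 0.975 on Ctrl arrays. The slope thus moved with genotype, and its part in the results was not tested beyond scaling the arrays by it. Scaled values are printed below for Sln and Casq2 and, in untreated hearts, Slc8a1. Among the 10 genes, this scaling changed only the calls of Casq2 and Slc8a1 between untreated genotypes, which were lost. The mean spike-in ratio lay more than 0.3 below that of all arrays on 5 arrays, MR-Cardio-Aldo 4 and 6 and MR-Cardio 3, 4 and 7, and on no control array.

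The main difference was between genotypes, and it ran in opposite directions for the pump with its inhibitors and for the channel partner Fkbp1b and the exchanger Slc8a1. Tests were made with limma across all 21892 genes, with Benjamini-Hochberg adjustment and a threshold of 0.05. Between MR-Cardio-Aldo and Ctrl-Aldo hearts 6 of the 10 genes passed, 2 higher (Fkbp1b and Slc8a1) and 4 lower (Pln, Sln, Atp2a2 and Hrc). Over all genes 25.1% passed in that comparison, 10.7% higher and 14.4% lower. Between MR-Cardio and Ctrl hearts 6 also passed, 3 higher (Fkbp1b, Casq2 and Slc8a1) and 3 lower (Pln, Sln and Atp2a2), against 13.6% of all genes, 5.79% higher and 7.82% lower. The median difference of the 10 genes was -0.05 between the aldosterone groups (-0.04 over all genes) and -0.15 between the untreated groups (-0.01 over all genes). For Atp2a2, probe A_51_P451075 did not pass in either comparison, and other genes with ratios as low as that of Sln moved the same way, as given below. The levels are shown in the plot of ratios by mouse.

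**Figure D1:**
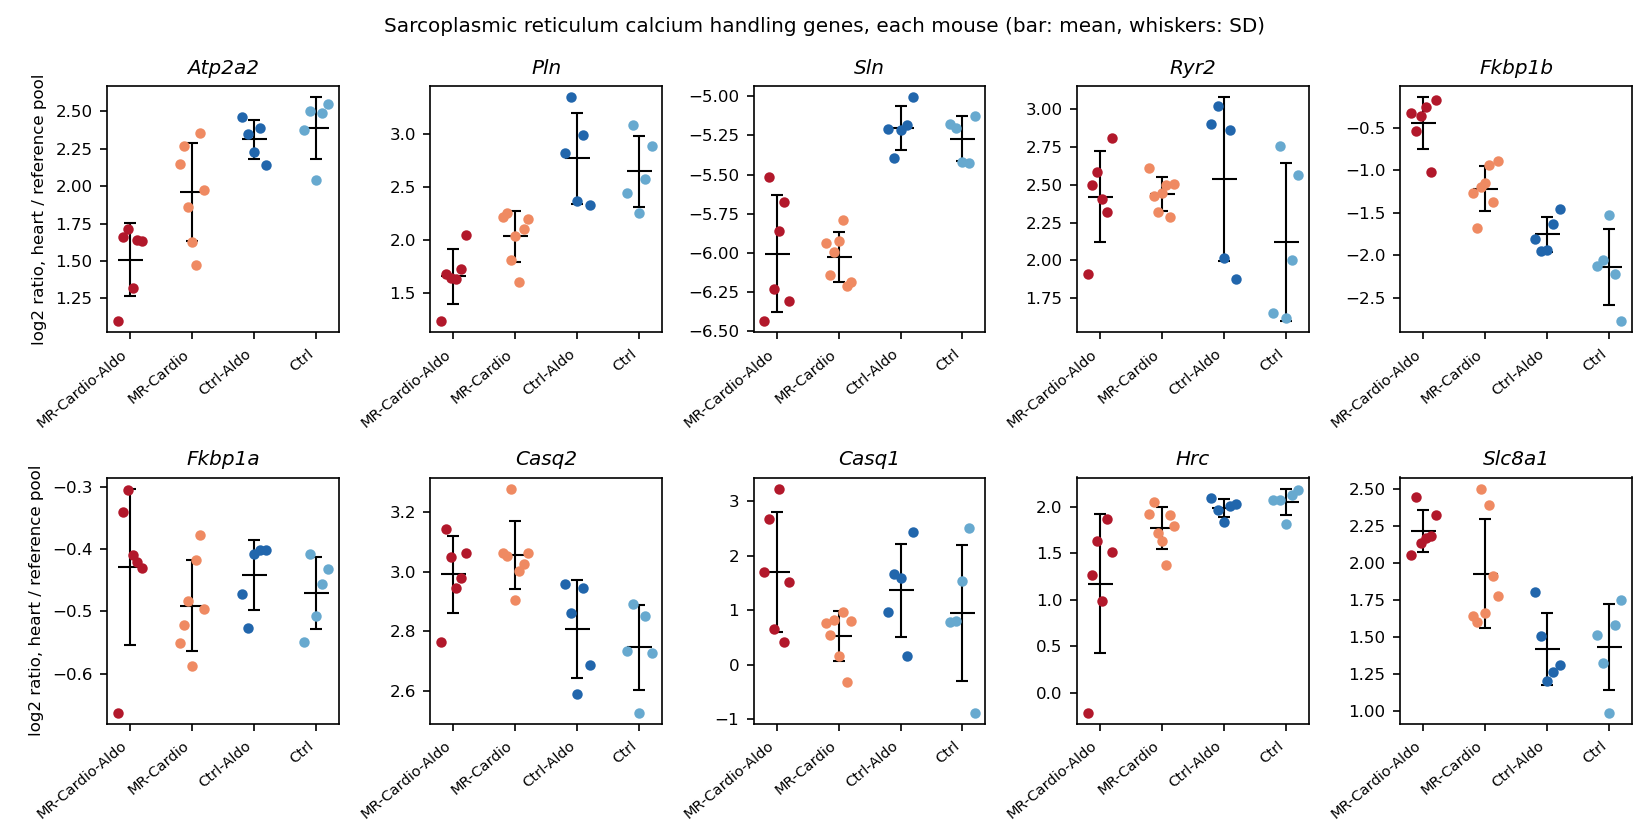
Log2 ratio of heart over reference pool (y axis) for each of the 10 genes, 1 point per mouse, in MR-Cardio-Aldo (n = 6), MR-Cardio (n = 7), Ctrl-Aldo (n = 5) and Ctrl (n = 5) hearts. The horizontal bar is the group mean and the whiskers are the SD, and the y axes differ between panels. By group mean Pln, Sln and Atp2a2 lie lower and Fkbp1b and Slc8a1 higher in the 2 MR-Cardio groups. In untreated hearts the mice of the 2 genotypes overlap for Pln, Atp2a2, Fkbp1b and Slc8a1. For Ryr2, Fkbp1a, Casq1 and Hrc they overlap with and without aldosterone.

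Atp2a2, located at chr5:122453513-122502225 (GRCm38), encodes SERCA2, the pump that refills the store. In MR-Cardio-Aldo hearts its ratio ran from 1.10 over a median of 1.64 to 1.71, against 2.46, 2.35, 2.23, 2.39 and 2.14 in the Ctrl-Aldo hearts. In untreated MR-Cardio hearts it ran from 1.47 over a median of 1.98 to 2.36, against 2.37, 2.50, 2.04, 2.49 and 2.55 in the Ctrl hearts. Under aldosterone every MR-Cardio heart lay below every control heart, whereas without it 4 of 7 did. Group means were 1.51 ± 0.25 in MR-Cardio-Aldo, 1.96 ± 0.33 in MR-Cardio, 2.31 ± 0.13 in Ctrl-Aldo and 2.39 ± 0.21 in Ctrl hearts (SD). The gene was 1.75-fold lower under aldosterone (-0.80 ± 0.15, SE, adjusted p = 0.000442) and 1.35-fold lower without it (-0.43 ± 0.14, adjusted p = 0.049).

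The 2 probes of Atp2a2 did not give the same size of difference. Probe A_52_P168097 was lower by 1.27 ± 0.18 on the log2 scale under aldosterone (-1.27, adjusted p = 3.92e-05 over all probes) and gave -0.67 ± 0.17 without it (adjusted p = 0.0128). Probe A_51_P451075 gave -0.34 ± 0.13 (adjusted p = 0.0574) and -0.19 ± 0.13 (adjusted p = 0.355), neither past the threshold. The call for untreated hearts was also lost when the pair of groups alone was fitted (adjusted p = 0.108) and when either control 1, 2, 4 or 5, or MR-Cardio 3, 4, 5 or 7, was left out (adjusted p = 0.0724 to 0.105). Without the 5 arrays of low spike-in ratio it was -0.33 (adjusted p = 0.328), with the spike-in offset as a covariate -0.37 (adjusted p = 0.101), and with array medians centred -0.41 (adjusted p = 0.0675).

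Pln, at chr10:53337686-53345999, encodes phospholamban, which inhibits SERCA2 until it is phosphorylated. Its ratio ran from 1.23 over a median of 1.66 to 2.05 in MR-Cardio-Aldo hearts, against 2.82, 3.35, 2.37, 2.99 and 2.33 in Ctrl-Aldo hearts. It ran from 1.61 over a median of 2.10 to 2.26 in untreated MR-Cardio hearts, against 2.44, 3.08, 2.25, 2.58 and 2.89 in Ctrl hearts. All 6 MR-Cardio-Aldo hearts lay below all Ctrl-Aldo hearts, and 6 of 7 untreated MR-Cardio hearts lay below all Ctrl hearts. The group means were 1.66 ± 0.26 in MR-Cardio-Aldo against 2.77 ± 0.43 in Ctrl-Aldo hearts, and 2.03 ± 0.24 in MR-Cardio against 2.65 ± 0.34 in Ctrl hearts (SD). Pln was 2.16-fold lower under aldosterone (-1.11 ± 0.18, SE, adjusted p = 0.000166) and 1.53-fold lower in untreated hearts (-0.62 ± 0.18, adjusted p = 0.0246). The value for untreated hearts lost its call without control 2 or 5 or MR-Cardio 3 or 5 (-0.58 to -0.51, adjusted p = 0.0512 to 0.0744) and without the 5 arrays of low spike-in ratio (-0.60, adjusted p = 0.133), and the value under aldosterone kept it under every alternative tried.

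With the 2 Atp2a2 probes averaged, Pln and Atp2a2 both fell, and their ratio to each other moved less than either gene. This depends on the averaging. The Pln difference under aldosterone (-1.11) lay between those of the 2 Atp2a2 probes (-1.27 and -0.34). The same held without aldosterone (-0.62, against -0.67 and -0.19), so the direction of the move differs with the probe used. The Pln ratio minus the Atp2a2 ratio averaged 0.15 ± 0.18 in MR-Cardio-Aldo, against 0.46 ± 0.35 in Ctrl-Aldo hearts (SD), with ranges of -0.07 to 0.41 in MR-Cardio-Aldo and 0.15 to 0.996 in Ctrl-Aldo hearts. It averaged 0.07 ± 0.21 in untreated MR-Cardio, against 0.26 ± 0.21 in Ctrl hearts, and these ranges overlapped too. No test was made on this difference of ratios.

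Sln, at chr9:53850251-53853849, encodes sarcolipin, a SERCA inhibitor that in the mouse heart is found mainly in atria. Its ratio was far below that of the reference pool in all ventricles. It ran from -6.44 over a median of -6.05 to -5.52 in MR-Cardio-Aldo hearts, against -5.21, -5.40, -5.21, -5.19 and -5.01 in Ctrl-Aldo hearts. Untreated MR-Cardio hearts ran from -6.21 over a median of -6.00 to -5.79, against -5.18, -5.21, -5.42, -5.43 and -5.13 in Ctrl hearts. The genotypes did not overlap in either comparison, and the difference was nearly the same with aldosterone (-0.80 ± 0.14, SE, 1.74-fold lower, adjusted p = 0.000226) and without it (-0.76 ± 0.13, 1.69-fold lower, adjusted p = 0.000618). The interaction of genotype and aldosterone for Sln was -0.05, with a 95% interval of -0.44 to 0.35.

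Other genes with such low ratios moved the same way as Sln. The 440 genes with a mean ratio under -5 had a median difference of -0.55 both between MR-Cardio-Aldo and Ctrl-Aldo hearts and between MR-Cardio and Ctrl hearts. All 7 liver markers, liver being part of the reference pool, were lower in MR-Cardio hearts, with medians of -0.85 under aldosterone and -0.97 without it. Their mean ratio per mouse was -5.80 to -5.24 in MR-Cardio-Aldo against -4.55 to -4.46 in Ctrl-Aldo hearts, and -5.61 to -5.25 in MR-Cardio against -4.53 to -4.33 in Ctrl hearts. Of 9 atrial markers 3 fell and 0 rose in untreated hearts, where 13.6% of all genes passed. The 3 that fell were Myl7 (-0.94 ± 0.15, SE), Bmp10 (-0.82 ± 0.27) and Stard10 (-0.42 ± 0.13). Under aldosterone, where 25.1% of all genes passed, 2 fell and 1 rose. The mean ratio of the atrial list per mouse was -1.64 to -1.04 in MR-Cardio-Aldo against -1.43 to -1.23 in Ctrl-Aldo hearts, and -1.57 to -1.13 in MR-Cardio against -1.51 to -1.30 in Ctrl hearts. The part of either in the Sln values was not tested. After quantile normalization between arrays the Sln difference was -0.36 under aldosterone (adjusted p = 0.0486) and -0.31 in untreated hearts (adjusted p = 0.109), the second no longer past the threshold. With the arrays scaled by their spike-in slope it was -0.55 under aldosterone (adjusted p = 0.00282) and -0.49 in untreated hearts (adjusted p = 0.0113).

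Ryr2, at chr13:11553099-12106945, encodes the calcium release channel of heart muscle and showed no difference past the threshold. Its mean ratio was 2.42 ± 0.30 in MR-Cardio-Aldo, 2.44 ± 0.11 in MR-Cardio, 2.54 ± 0.54 in Ctrl-Aldo and 2.12 ± 0.52 in Ctrl hearts (SD). Control hearts were spread widely, with 2.90, 3.02, 2.02, 2.86 and 1.88 under aldosterone and 1.65, 2.76, 1.62, 2.00 and 2.57 without it. The genotype difference was -0.11 under aldosterone (95% interval -0.58 to 0.35, adjusted p = 0.748) and 0.32 without it (-0.13 to 0.77, adjusted p = 0.359), so changes of either sign remain within these intervals.

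Fkbp1b, at chr12:4833176-4841573, encodes FKBP12.6, the protein that binds the cardiac ryanodine receptor, and showed the largest rise among the 10 genes in both genotype comparisons. Its ratio ran from -1.02 over a median of -0.34 to -0.18 in MR-Cardio-Aldo hearts, against -1.81, -1.95, -1.93, -1.63 and -1.46 in Ctrl-Aldo hearts. In untreated MR-Cardio hearts it ran from -1.68 over a median of -1.20 to -0.89, against -2.12, -2.06, -1.52, -2.22 and -2.77 in Ctrl hearts. Every MR-Cardio-Aldo heart lay above every Ctrl-Aldo heart, and 6 of 7 untreated MR-Cardio hearts lay above every Ctrl heart. Fkbp1b was 2.47-fold higher under aldosterone (1.31 ± 0.18, SE, adjusted p = 3.47e-05) and 1.90-fold higher without it (0.93 ± 0.18, adjusted p = 0.00151). Both its probes rose in both comparisons, by 1.28 and 1.34 under aldosterone and by 0.84 and 1.02 without it, and the 2 calls held under every alternative tried.

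Fkbp1a, at chr2:151542483-151561691, encodes the close relative FKBP12, found in most tissues. It had group means of -0.43 ± 0.13 in MR-Cardio-Aldo, -0.49 ± 0.07 in MR-Cardio, -0.44 ± 0.06 in Ctrl-Aldo and -0.47 ± 0.06 in Ctrl hearts (SD). Its difference was 0.01 under aldosterone (95% interval -0.11 to 0.14) and -0.02 without it (-0.14 to 0.10), and its 3 probes had values of both signs, none past the threshold. The Fkbp1b ratio minus the Fkbp1a ratio averaged -0.02 ± 0.35 in MR-Cardio-Aldo against -1.31 ± 0.18 in Ctrl-Aldo hearts, and -0.72 ± 0.27 in MR-Cardio against -1.67 ± 0.47 in Ctrl hearts (SD). Whether a probe of either gene also reads RNA of the other was not tested.

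Casq2, at chr3:102086415-102146514, encodes cardiac calsequestrin, the main calcium buffer of the store, and rose modestly in untreated MR-Cardio hearts. These ran from 2.90 over a median of 3.05 to 3.28, against 2.73, 2.89, 2.53, 2.85 and 2.73 in Ctrl hearts, without overlap. The difference was 0.31 ± 0.08 (SE, 1.24-fold higher, adjusted p = 0.0161). With the arrays scaled by their spike-in slope it was 0.17 (adjusted p = 0.161). Its call was also lost after quantile normalization (0.21, adjusted p = 0.0985), without control 3 (0.25, adjusted p = 0.0573) and without the 5 arrays of low spike-in ratio (0.29, adjusted p = 0.109). Under aldosterone the ratio ran from 2.77 over a median of 3.02 to 3.14 in MR-Cardio-Aldo hearts, against 2.96, 2.86, 2.59, 2.94 and 2.69 in Ctrl-Aldo hearts, and the difference of 0.18 ± 0.09 did not pass (adjusted p = 0.131), though it did with array quality weights (0.22, adjusted p = 0.0457). This difference was 0.04 after quantile normalization (adjusted p = 0.744) and 0.05 with slope scaling (adjusted p = 0.672).

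Casq1, at chr1:172209894-172219895, encodes the calsequestrin of skeletal muscle and varied more between mice than any other of the 10 genes. It ran from 0.41 over a median of 1.61 to 3.23 in MR-Cardio-Aldo, and from -0.32 over a median of 0.78 to 0.97 in untreated MR-Cardio hearts. It was 0.96, 1.67, 1.60, 0.16 and 2.44 in Ctrl-Aldo, and 0.79, 0.80, 1.54, 2.51 and -0.88 in Ctrl hearts. With this spread, genotype differences of 0.33 ± 0.54 under aldosterone (SE, adjusted p = 0.693) and -0.42 ± 0.52 without it (adjusted p = 0.659) did not pass. Of 13 skeletal muscle markers 4 rose and 2 fell between MR-Cardio-Aldo and Ctrl-Aldo hearts, where 25.1% of all genes passed. Between MR-Cardio and Ctrl hearts, where 13.6% of all genes passed, 3 of these markers rose and 2 fell. Their mean ratio per mouse was 0.64 to 0.90 in MR-Cardio-Aldo against -0.03 to 0.17 in Ctrl-Aldo hearts, and 0.23 to 1.07 in MR-Cardio against -0.14 to 0.13 in Ctrl hearts, and their part in the Casq1 values was not tested. The fast troponin genes Tnnt3 (4.99 ± 0.49 and 4.17 ± 0.48, SE) and Tnni2 (4.19 ± 0.38 and 3.84 ± 0.37) had the largest differences of that list, whose median difference was -0.05 under aldosterone, with 9 of 13 markers negative, and -0.01 without it, with 7 of 13 negative.

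Hrc, at chr7:45335269-45338973, encodes the histidine-rich calcium-binding protein of the store. Its ratio in MR-Cardio-Aldo hearts ran from -0.22 over a median of 1.39 to 1.87, against 2.09, 1.97, 1.83, 2.01 and 2.03 in Ctrl-Aldo hearts. Of the 6 MR-Cardio-Aldo hearts 5 lay below every Ctrl-Aldo heart, and the difference was -0.81 ± 0.24 (SE, 1.76-fold lower, adjusted p = 0.0157). The lowest value came from MR-Cardio-Aldo mouse 1, which was the lowest of its group in 8 of the 10 genes (all but Fkbp1b and Casq1) and in the mean of 10 ventricular markers, at 1.60 against 2.24 to 2.42 in the other 5 hearts of its group. Without this mouse the Hrc difference was -0.54 ± 0.14 (adjusted p = 0.00752), and the other 5 calls under aldosterone held as well, with -1.03 for Pln, -0.72 for Sln, -0.72 for Atp2a2, 1.28 for Fkbp1b and 0.84 for Slc8a1. The call was lost when the pair of groups alone was fitted (adjusted p = 0.0858). Untreated MR-Cardio hearts ran from 1.37 over a median of 1.79 to 2.05, against 2.07, 2.07, 1.81, 2.13 and 2.17 in Ctrl hearts, and 4 of 7 lay below every Ctrl heart. The difference of -0.28 ± 0.23 did not pass (adjusted p = 0.463), nor did it under any alternative (lowest adjusted p = 0.137). Its SE rests on the spread of all groups, which was widest in MR-Cardio-Aldo (SD 0.75, against 0.22 in MR-Cardio and 0.14 in Ctrl hearts).

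Slc8a1, at chr17:81373105-81738387, encodes the sodium-calcium exchanger NCX1 of the cell membrane, and rose in MR-Cardio hearts. Its ratio ran from 2.05 over a median of 2.18 to 2.44 in MR-Cardio-Aldo hearts, against 1.80, 1.50, 1.20, 1.26 and 1.31 in Ctrl-Aldo hearts. In untreated MR-Cardio hearts it ran from 1.60 over a median of 1.78 to 2.50, against 1.51, 1.32, 0.99, 1.58 and 1.75 in Ctrl hearts. The groups did not overlap under aldosterone, and without it 4 of 7 MR-Cardio hearts lay above every Ctrl heart. The exchanger gene was 1.74-fold higher under aldosterone (0.80 ± 0.17, SE, adjusted p = 0.0012) and 1.41-fold higher without it (0.50 ± 0.16, adjusted p = 0.0431). Mice 3 and 5 had the highest values of the untreated MR-Cardio group, 2.50 and 2.39, and the call for untreated hearts was lost without either (adjusted p = 0.0902 each). It was also lost without control 1, 2, 3 or 4 or MR-Cardio 6 or 7 (adjusted p = 0.0516 to 0.135).

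Of the 3 Slc8a1 probes, A_52_P313285 rose by 0.86 ± 0.11 under aldosterone and 0.67 ± 0.11 without it, and A_55_P2080758 by 0.86 ± 0.17 and 0.61 ± 0.17 (SE). Probe A_55_P2292435 gave 0.68 ± 0.29 (adjusted p = 0.0891) and 0.20 ± 0.28 (adjusted p = 0.696), not past the threshold. With arrays scaled by their spike-in slope the averaged difference in untreated hearts was 0.42 (adjusted p = 0.0807). The call for untreated hearts was also lost when the pair of groups alone was fitted (adjusted p = 0.116). Without the 5 arrays of low spike-in ratio the difference was 0.46 (adjusted p = 0.169). Median centring (adjusted p = 0.0517), quantile normalization (0.0596), a filter on the lowest ratios (0.0524) and the spike-in offset as a covariate (0.0584) lost the call too. Of 26 alternatives, 9 kept it.

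**Figure D2:**
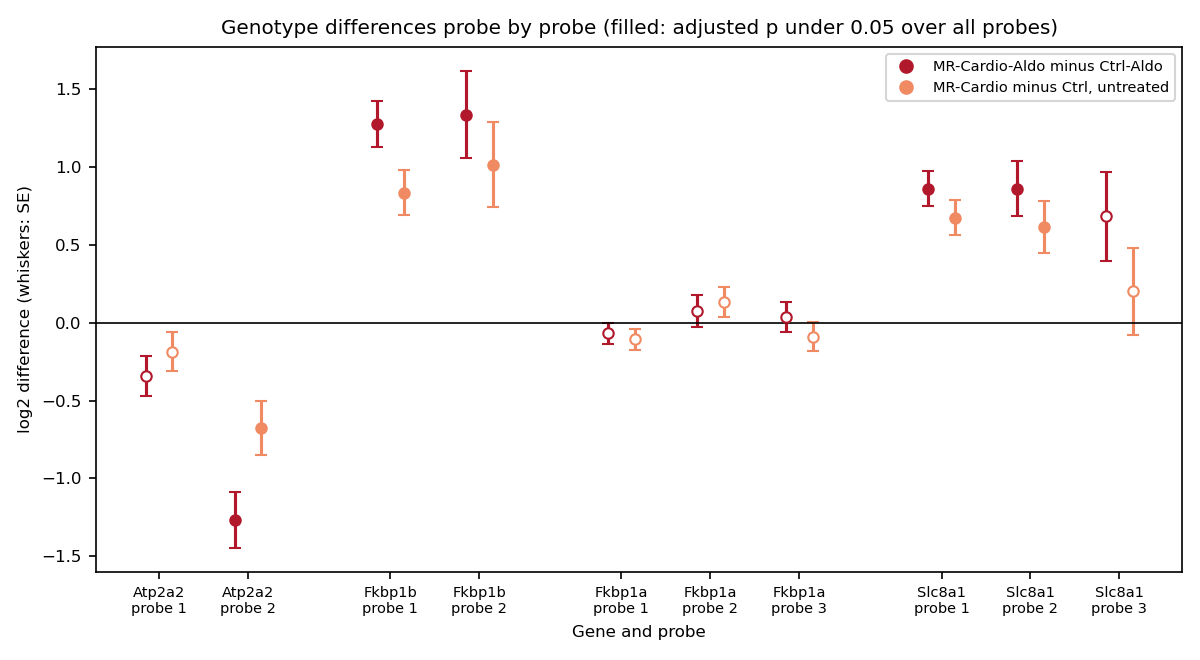
Log2 difference between genotypes (y axis) for each probe of the 4 genes with more than 1 probe, under aldosterone (MR-Cardio-Aldo minus Ctrl-Aldo) and without it (MR-Cardio minus Ctrl). Whiskers are the SE and filled points have an adjusted p under 0.05 over all probes. Both Fkbp1b probes and 2 of 3 Slc8a1 probes are filled in both comparisons, whereas 1 of 2 Atp2a2 probes is.

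Without overlap between groups, 5 of the 10 genes separated MR-Cardio-Aldo from Ctrl-Aldo hearts (Pln, Sln and Atp2a2 lower, Fkbp1b and Slc8a1 higher), against 16.1% of all genes. In untreated hearts 2 did, Sln and Casq2, against 6.97% of all genes. The 2 genotype comparisons share no mice. They do share the fit and its estimate of spread, and the spike-in slope differed between genotypes in both, so they are not independent of each other.

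The design also asked what aldosterone changed within each genotype. In MR-Cardio mice Fkbp1b was the only one of the 10 genes past the threshold, against 1.43% of all genes (0.950% higher, 0.484% lower). It was 1.70-fold higher in MR-Cardio-Aldo than in MR-Cardio hearts (0.77 ± 0.17, SE, adjusted p = 0.023), with means of -0.45 ± 0.31 in MR-Cardio-Aldo and -1.21 ± 0.27 in MR-Cardio hearts (SD), and 5 of 6 MR-Cardio-Aldo hearts exceeded all untreated MR-Cardio hearts. This call was lost when the pair of groups alone was fitted (adjusted p = 0.12), without the 5 arrays of low spike-in ratio (0.75, adjusted p = 0.0801), and without MR-Cardio 2 or 6 or MR-Cardio-Aldo 1 or 4 (0.69 to 0.74, adjusted p = 0.0556 to 0.0686). Of its 2 probes, A_51_P293781 passed (0.68 ± 0.14, adjusted p = 0.0149) and A_55_P2021447 did not (0.86 ± 0.26, adjusted p = 0.105).

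The other 9 genes did not pass in that comparison. Atp2a2 had a difference of -0.45 ± 0.14 (SE, adjusted p = 0.104) and passed without MR-Cardio 5 (-0.53, adjusted p = 0.0267) or when its probe with the higher mean ratio stood for the gene (-0.66, adjusted p = 0.0495). Hrc had -0.60 ± 0.22 (adjusted p = 0.196), and without MR-Cardio-Aldo 1 it had -0.32 ± 0.13 (adjusted p = 0.289). Values were -0.37 ± 0.17 for Pln (adjusted p = 0.311), 0.29 ± 0.15 for Slc8a1 (adjusted p = 0.4) and 1.17 ± 0.49 for Casq1 (adjusted p = 0.27). Those of Sln (0.02), Ryr2 (-0.02), Fkbp1a (0.06) and Casq2 (-0.06) were smaller. At an unadjusted p under 0.05, 5 of the 10 genes passed here, against 3109 of all 21892. Because these values share the untreated MR-Cardio mice with the genotype comparison of untreated hearts, and the treated MR-Cardio mice with that under aldosterone, they are not independent of either.

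In non-transgenic mice none of the 10 genes changed under aldosterone by limma (adjusted p = 1 for each, 0 of 10 at an unadjusted p under 0.05), and 0% of all genes passed, with 1036 of 21892 at an unadjusted p under 0.05. The largest differences between Ctrl-Aldo and Ctrl hearts were 0.42 ± 0.23 for Ryr2, 0.41 ± 0.56 for Casq1 and 0.39 ± 0.19 for Fkbp1b (SE). Leaving out 1 mouse moved the Casq1 value between -0.05 (without control 5) and 0.80 (without control 4), and without control 5 the Fkbp1b value was 0.23. The 95% intervals reached up to 1.58 for Casq1, 0.91 for Ryr2 and 0.79 for Fkbp1b, and down to -0.75 for Casq1, -0.58 for Hrc and -0.40 for Atp2a2. The median over the 10 genes was 0.07, against 0.01 over all genes.

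Whether aldosterone acted differently in the 2 genotypes was tested as an interaction, and none of the 10 genes passed by limma (adjusted p = 0.922 to 0.985, 0 of 10 at an unadjusted p under 0.05); 0% of all genes did (1197 at an unadjusted p under 0.05). The largest interaction values were 0.75 ± 0.75 for Casq1, -0.53 ± 0.33 for Hrc, -0.50 ± 0.26 for Pln and -0.44 ± 0.31 for Ryr2 (SE). Without MR-Cardio-Aldo 1 the Hrc value was -0.25, and leaving out 1 mouse moved the Casq1 value between 0.36 (without control 4) and 1.21 (without control 5). That of Fkbp1b was 0.38 ± 0.26, with a 95% interval of -0.15 to 0.91. The passing of Fkbp1b in MR-Cardio mice and not in controls is therefore not shown to be a difference between genotypes.

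**Figure D3:**
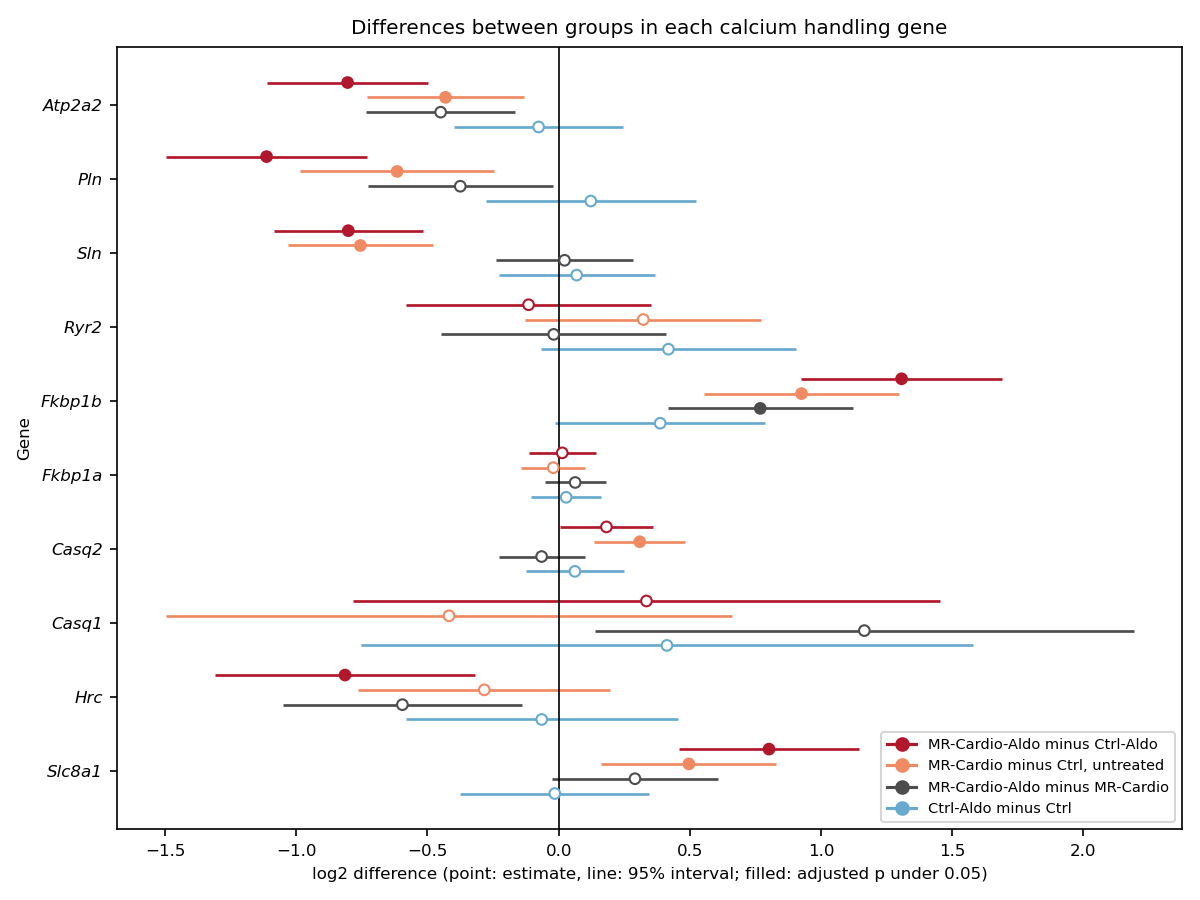
Log2 difference (x axis) of each of the 10 genes (y axis) in 4 comparisons, MR-Cardio-Aldo minus Ctrl-Aldo, MR-Cardio minus Ctrl, MR-Cardio-Aldo minus MR-Cardio and Ctrl-Aldo minus Ctrl. Lines are 95% intervals and filled points have an adjusted p under 0.05. Differences between genotypes reach -1.11 for Pln and 1.31 for Fkbp1b, and no point of Ctrl-Aldo minus Ctrl is filled.

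The genes whose ratio ran most like that of each called gene over the 23 arrays were identified by Pearson's r, as a description. The arrays share the genotype difference, so r within groups is given as well. Atp2a2 was nearest to Atp2a1, which encodes the SERCA1 pump of fast skeletal muscle (r = 0.974, 0.943 within groups), and to Ckm, which encodes muscle creatine kinase (0.968, 0.9 within groups). Whether the Atp2a1 probe also reads Atp2a2 RNA was not tested. Pln was nearest to Ces1d (0.964, 0.896 within groups), a carboxylesterase, and Il10rb (0.959, 0.867), a cytokine receptor subunit. Sln was nearest to Mup18 and Mup17 (0.933 each, 0.721 and 0.674 within groups), which encode major urinary proteins made in liver.

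Fkbp1b ran most like Ankrd23 (0.942, 0.726 within groups), a stretch-responsive ankyrin repeat protein of muscle, and Inpp5j (0.934, 0.697), an inositol phosphatase. Hrc ran most like Kif13a (0.927, 0.865), a kinesin motor, and Perm1 (0.917, 0.861), a regulator of muscle mitochondria. Slc8a1 was nearest to Tbl1x (0.88, 0.759), a corepressor subunit, and Nectin3 (0.878, 0.706), an adhesion molecule. Casq2 had the weakest neighbours, Epc2 (0.856, 0.676) and Raver2 (0.836, 0.727).

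A wider list of 51 genes of calcium handling outside the 10, of which 48 were measured, gave the setting. Between MR-Cardio-Aldo and Ctrl-Aldo hearts 7 rose, 14 fell and 27 did not pass, with a median of -0.13, where 25.1% of all genes passed. Between MR-Cardio and Ctrl hearts 4 rose, 11 fell and 33 did not pass, with a median of -0.05, where 13.6% of all genes passed. In MR-Cardio mice aldosterone lowered 1 of them, Atp2a1 (-0.75 ± 0.18, SE, adjusted p = 0.0426), a share near the 1.43% of all genes that passed, and in control mice 0 passed by limma, with 1 at an unadjusted p under 0.05.

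Atp2a1 fell by 1.56 ± 0.20 under aldosterone (SE; means 1.65 ± 0.31 in MR-Cardio-Aldo and 3.21 ± 0.21 in Ctrl-Aldo hearts, SD) and by 0.84 ± 0.19 without it. Tmem38b, which encodes the potassium channel TRIC-B of the reticulum, rose by 1.22 ± 0.19 under aldosterone and 0.99 ± 0.18 without it. Homer1, a scaffold protein (0.58 and 0.47), and the calmodulin gene Calm2 (0.47 and 0.37) rose in both comparisons too. Jph1 (0.82), Jsrp1 (0.60) and Srl (0.52) rose under aldosterone and did not pass without it (0.24, 0.29 and 0.34). Among chaperones of the reticulum that bind calcium, calnexin (Canx) fell in both (-0.72 and -0.52), and calreticulin (Calr) did as well (-0.25 and -0.28).

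In the genotype comparisons 25.1% of all genes passed under aldosterone (14.4% lower) and 13.6% without it (7.82% lower). The 17 kinase, phosphatase, anchoring and phosphodiesterase genes of the list were grouped as a class after the values were seen. Under aldosterone 1 of them rose, 7 fell and 9 did not pass, and without it 1 rose, 5 fell and 11 did not pass. The gene that rose was Ppp1cc, a catalytic subunit of protein phosphatase 1, with 0.45 ± 0.11 under aldosterone (SE, adjusted p = 0.00335) and 0.37 ± 0.10 without it (adjusted p = 0.019). Prkaca, the catalytic subunit of protein kinase A, fell in both comparisons, with -0.37 ± 0.10 under aldosterone (SE, adjusted p = 0.00757) and -0.48 ± 0.09 without it (adjusted p = 0.00157). The protein phosphatase 1 inhibitor Ppp1r1a had -0.996 ± 0.224 and -0.78 ± 0.22, both past the threshold, and the phosphatase targeting subunit Ppp1r3a had -0.85 ± 0.15 and -0.44 ± 0.15, likewise. Akap7, an anchor of protein kinase A, fell under aldosterone (-0.43 ± 0.10) and did not pass without it (-0.10 ± 0.09, adjusted p = 0.554). Of the 8 other calcium pumps and exchangers on the list, likewise grouped afterwards, 4 fell, 0 rose and 4 did not pass in each genotype comparison. Besides Atp2a1, the exchanger Slc8a2 (-0.41 and -0.45), the membrane pump Atp2b2 (-0.49 and -0.42) and the mitochondrial exchanger Slc8b1 (-0.36 and -0.44) fell in both. Slc8a3 (0.10 and 0.19), Atp2b4 (0.40 and 0.21), Atp2b1 (-0.09 and -0.08) and Atp2a3 (-0.16 and -0.03) did not pass. Most falls of the wider list lie in these classes, so they do not stand for the list. Outside them, under aldosterone, Tmem38b, Homer1, Calm2, Jph1, Jsrp1 and Srl rose and Canx, Calr and Mrln fell. The ratios of Ppp1r1a, Atp2b2 and Slc8a2 lay well below the reference pool, with means of -4.99, -3.34 and -2.49 in MR-Cardio-Aldo hearts. Brain is part of that pool, and of 4 brain markers 2 fell under aldosterone, 1 fell without it and 0 rose in either comparison. The part of the pool in these values was not tested.

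Mrln, which encodes myoregulin, a SERCA inhibitor of skeletal muscle, was singled out after its values were seen. It averaged 0.15 ± 0.46 in MR-Cardio-Aldo against 2.81 ± 0.36 in Ctrl-Aldo hearts (SD), a difference of -2.66 ± 0.62 (SE, adjusted p = 0.00328). In untreated MR-Cardio hearts it was spread between -1.06 and 3.65, against 2.54 to 3.27 in Ctrl hearts, and the difference of -1.60 ± 0.60 did not pass (adjusted p = 0.0818).

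**Figure D4:**
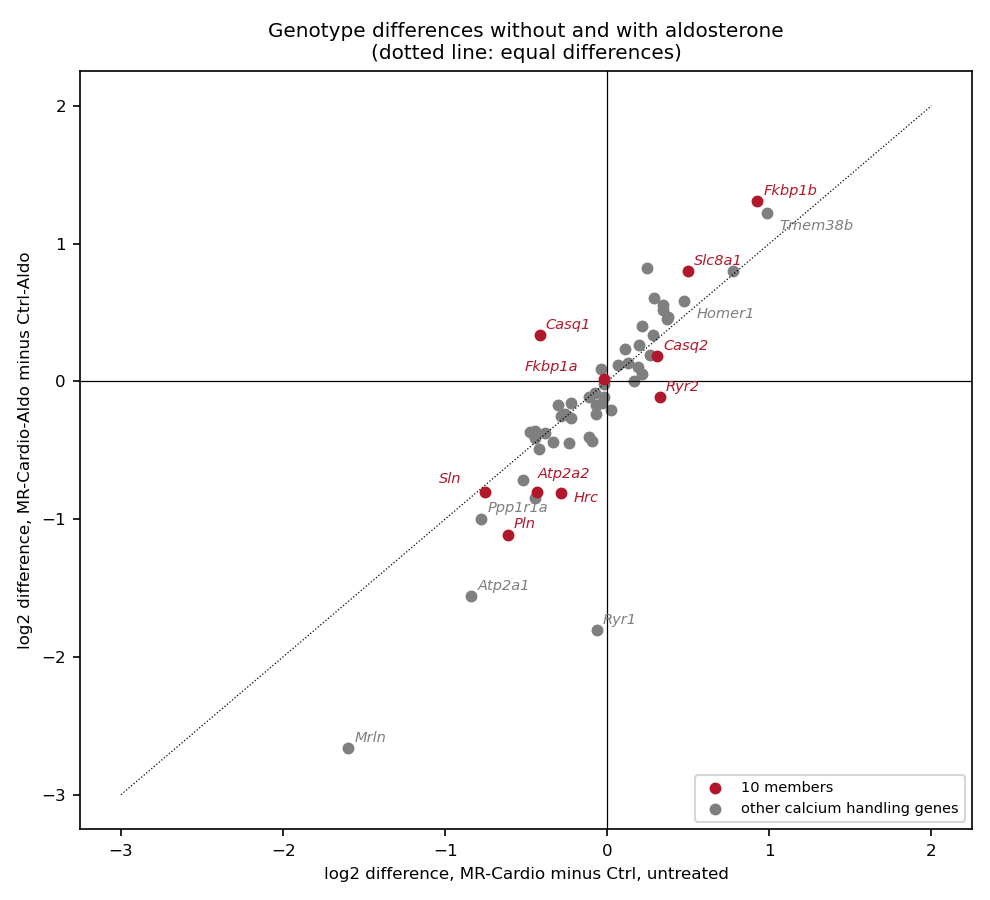
Log2 difference between untreated genotypes (MR-Cardio minus Ctrl, x axis) and between genotypes under aldosterone (MR-Cardio-Aldo minus Ctrl-Aldo, y axis) for the 10 genes (red) and the 48 measured genes of the wider calcium handling list (grey). The 2 axes share no mice but come from the same fit, and the spike-in slope differed between genotypes on both. The dotted line marks equal differences. Pln (-0.62, -1.11) and Atp2a1 (-0.84, -1.56) lie below the line and Fkbp1b (0.93, 1.31) above it. Mrln (-1.60, -2.66) and Ryr1 (-0.07, -1.80), labelled after their values were seen, lie at the lower edge, and Ryr1 did not pass in either comparison.

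Markers of the cells of the ventricle were set beside these values. Between genotypes 25.1% of all genes passed under aldosterone and 13.6% without it. None of 10 ventricular cardiomyocyte markers passed in any comparison by limma (2 at an unadjusted p under 0.05 in each genotype comparison), and their mean ratio per mouse was 1.60 to 2.42 in MR-Cardio-Aldo against 2.21 to 2.42 in Ctrl-Aldo hearts, and 2.07 to 2.38 in MR-Cardio against 2.07 to 2.33 in Ctrl hearts. Of 6 fibroblast markers 2 rose in each genotype comparison, and their mean ratio per mouse was 1.53 to 3.16 in MR-Cardio-Aldo against 1.20 to 1.73 in Ctrl-Aldo hearts, and 1.08 to 2.96 in MR-Cardio against 0.86 to 1.47 in Ctrl hearts. Under aldosterone 1 of 4 smooth muscle markers rose and 1 of 4 leukocyte markers fell, none of 4 endothelial markers passed by limma (1 at an unadjusted p under 0.05), and without aldosterone 1 leukocyte marker fell. Their part in the values of the 10 genes was not tested.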

How the data were processed

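Ventricle RNA of 23 male mice, labelled with Cy5, was hybridised against a Cy3-labelled reference pool on 2-colour Agilent arrays, per the labels, and the submitters' processing notes name Agilent Feature Extraction (version 10.7.3.1). The authors deposited 1 log2 ratio, heart over reference, per probe and array. Base and sign were inferred from the spike-in control probes and from heart and brain genes. Background correction and within-array normalization: not given in the sources used here. Signal over background was not analysed here. Of 39485 values per array, 56 control probes were left out, 30625 probes had 1 gene symbol and 8804 were unnamed here. Averaging the probes of each gene left 21892 genes.

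Differences were fitted with limma 3.58.1 (R 4.3.3, lmFit and eBayes) on all 23 arrays, 1 mean per group, two-sided, with Benjamini-Hochberg adjustment over all genes. The fit was tested on simulated data. Fold changes were computed as 2 raised to the difference. Each array was taken as 1 mouse, since the labels give each an animal number. The number of arrays limits the precision. All 10 genes are named, and the wider list by up to 10 smallest p per comparison among those past the threshold. Ppp1cc, Jph1, Jsrp1, Srl, Mrln, Ryr1, Slc8a3, Atp2b4, Atp2b1 and Atp2a3 are named outside this rule. The genes, lists, tests and rules were chosen with earlier results of these data known, so no list is independent support. Gene positions come from RefSeq on GRCm38.p6 through gene identifiers, and no probe positions were used. Alternatives covered scaling (median centring, quantile normalization, spike-in slope), probe choice, the fit, a filter on the lowest 25% of ratios, the sample number as a block and each mouse left out. The spike-in offset as a covariate, and leaving out 5 arrays with an offset below -0.3, were added after seeing the data.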

Additional observations from a re-analysis of the deposited data

Results flagged for a closer look

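Within each gene and group, a mouse was singled out where its gap to the nearest mouse of the group was large relative to the range of the group (Dixon's criterion). Of 40 sets of 1 gene in 1 group, 3 held such a mouse, and chance gives about 1 in 20. Fkbp1a, the gene of FKBP12, was lowest in MR-Cardio-Aldo mouse 1, at -0.66 against -0.43 in the next mouse. Casq2, the cardiac calsequestrin gene, was highest in MR-Cardio mouse 3, at 3.28 against 3.06 in the next mouse. Hrc was lowest in Ctrl mouse 3, at 1.81 against 2.07 in the next mouse.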

How the results depend on the processing

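Over 50 values, those of the 10 genes in 5 comparisons, 13 passed the threshold. Of 1295 values under alternatives, 1237 kept their side of the threshold and their direction where called, 55 no longer passed, 3 newly passed and 0 called values changed sign. Only the genotype differences of Fkbp1b in both comparisons and of Pln and Sln under aldosterone passed under every alternative that fitted the gene. Fkbp1b and Sln were not fitted with the filter on the lowest 25% of ratios. The Sln value came near the threshold (highest adjusted p = 0.0486 by limma). Medians over all genes moved by less than 0.1 between scalings. With the compared groups alone, 8 genes passed between Ctrl-Aldo and Ctrl hearts and 0 between MR-Cardio-Aldo and MR-Cardio hearts. Without the 25% of genes lowest in ratio, 1614 passed between untreated genotypes (835 higher, 779 lower) and 94 between MR-Cardio-Aldo and MR-Cardio hearts (38 higher, 56 lower), so in both the larger share changed direction. Without the 5 arrays of low spike-in offset, 1086 passed between untreated genotypes. Leaving out 1 mouse gave 2199 to 3569 genes between untreated genotypes, 4553 to 5471 under aldosterone, 138 to 697 for aldosterone in MR-Cardio mice, 0 to 1 for aldosterone in controls and 0 to 1 for the interaction. For aldosterone in MR-Cardio mice the count was 697 without MR-Cardio 5, 146 and 154 without MR-Cardio 2 and 6, and 199, 152 and 138 without MR-Cardio-Aldo 1, 2 and 4. The cause of these changes was not tested.

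Sample numbers recur across groups, but mice of the same number did not deviate together on average (mean r of -0.008, against 0.001 for other numbers). Their lowest r was -0.156, and 3 of 31 pairs were over 0.1. For 7 of 23 mice the nearest mouse of another group bore their own number, and the share to be expected without pairing was not computed. With the number as a replicate block, 154 genes passed between MR-Cardio-Aldo and MR-Cardio hearts, 2343 between untreated genotypes, 5349 under aldosterone, and 0 for the other 2. With this block the calls of Atp2a2 (adjusted p = 0.0549), Casq2 (0.0605) and Slc8a1 (0.0975) between untreated genotypes and of Fkbp1b for aldosterone in MR-Cardio mice (0.0522) did not pass.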
